A study of Mus musculus with 6 samples.

Results

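The interleukin-6 (IL6) family of cytokines, its receptors and the transcription factor Stat3 were described by 10 genes, chosen by symbol: the ligands Il6, Osm and Lif, the ligand-binding receptors Il6ra, Osmr, Lifr and Il11ra1, the shared receptor Il6st (gp130), Stat3, and the inhibitor Socs3. All 10 were found among the 19349 gene symbols of the count tables. The RNA came from single cells captured in droplets (10x Genomics Chromium), taken from the non-parenchymal fraction of the liver, from which most hepatocytes are removed, in mice with nonalcoholic steatohepatitis (NASH). The study asked how ginkgetin, a biflavone from Ginkgo leaves, acts on the liver in NASH and which cells respond. There were 3 vehicle libraries (DMSO, the solvent alone) and 3 ginkgetin libraries (10 mg/kg/day, given into the stomach). Both groups were male C57BL/6J mice that had received a high-fat diet as the NASH model, and the single-cell libraries included no chow-diet group. The labels number the replicates 1 to 3 in each group but do not say that each came from a separate mouse, so p-values measure the spread between these libraries, which may be technical in part.

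IL6-family cytokines signal through Il6st, a receptor chain that many cells carry. IL6 first binds Il6ra, IL11 binds Il11ra1, leukaemia inhibitory factor (Lif) binds Lifr, and oncostatin M (Osm) binds Osmr or Lifr, and each complex recruits or contains Il6st. The complex activates JAK kinases, which phosphorylate Stat3, and Stat3 then switches on target genes including Socs3, which blocks the receptor in return. In the liver the pathway is known for driving the acute-phase response of hepatocytes and for signals between macrophages, endothelial cells and stellate cells, the liver's matrix-producing pericytes. Phosphorylation of Stat3 is not measured by RNA sequencing.

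The promoter of Socs3 is shown because Socs3 is the feedback target of Stat3 and because its window alone among those of the members held the palindromic letters TTCNNNGAA, to which STAT factors are known to bind. The sequence is from RefSeq on GRCm38.p6, chr11:117969502-117969530, minus strand, with the match in capitals.
Socs3 promoter: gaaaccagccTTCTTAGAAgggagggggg
The match began 154 bases before RefSeq's Socs3 gene start, and it lay inside the wider span that the GENCODE annotation gives Socs3 (chr11:117966079-117970047). Windows were found for 9 of the 10 members (11 windows, with none used for Osm), and Socs3 was the 1 member with a match. Of all 32851 windows searched over the 250 bases before a gene start, 2306 held the motif on either strand (7.02%), so a match is a description of letters only.

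The 6 libraries held 33168 barcodes, 3577 to 8119 each, with 13128697 to 61796882 unique molecular identifiers (UMIs). Of these, 27544 cells passed the filters, and 25570 lay in classes named by their markers ("-like") or in the Vwf-led class. The Vwf-led class is 2 clusters that failed the naming rule and are called by a leading gene, a choice made after the clusters were seen. The libraries of replicates 1 and 2 and those of replicate 3 formed separate sets: 2253 symbols had no UMI in replicates 1 and 2, and 946 had none in replicate 3. Libraries shared 0 to 85 barcodes in pairs. The groups also differed in makeup and depth. Endothelial-like cells were 8.56% to 16.8% of kept cells in vehicle and 28.2% to 43.6% in ginkgetin libraries. Kupffer-like cells had a median of 6932 to 19947 UMIs in vehicle and 1848 to 2217 in ginkgetin libraries. Levels are given in CPM, the UMIs of a gene per 1000000 UMIs of all genes in the cells of 1 class and 1 library. The summed level of 7 endothelial markers was also higher in ginkgetin libraries within other classes, from 142 to 148 CPM to 455 to 1355 CPM in Kupffer-like cells, and from 119 to 149 CPM to 250.5 to 1002 CPM in B cell-like cells. 

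Which cells carried the ligands and which the receptors was described first. Over both groups, Kupffer-like cells held 51.7% of the 269 Il6 UMIs in classes and monocyte-like cells 30.1%. Of 1522 Osm UMIs in classes, 45.9% lay in monocyte-like cells and 25% in Trem2 macrophage-like cells, the lipid-associated macrophages of NASH. These shares follow the number of cells as well as the level. Of the UMIs in classes, endothelial-like cells held 78.7% of 46562 for Il6st, 84.7% of 30954 for Lifr and 78.8% of 3730 for Osmr. All barcodes, with those filtered out or unnamed, held 65592, 44858 and 5201 UMIs of these genes. Il6ra lay mostly in myeloid classes. Of its 7382 UMIs in classes, 30.5% lay in monocyte-like, 24.5% in Kupffer-like and 17% in Trem2 macrophage-like cells.

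Levels per class carry no weight of cell number. Among the ligands, mean Il6 over libraries was 13.8 CPM in Kupffer-like, 6.32 CPM in portal fibroblast-like (from 5 UMIs) and 6.13 CPM in monocyte-like cells, which all overlapped. In vehicle libraries alone the mean was 3.32 CPM in Kupffer-like, 4.98 CPM in monocyte-like and 9.52 CPM in portal fibroblast-like cells, the last from 4 UMIs. Mean Osm was 34.1 CPM in monocyte-like cells, then 14.9 CPM in mature dendritic-like, 13 CPM in NK cell-like (from 11 UMIs) and 12.1 CPM in both type 2 dendritic-like and Trem2 macrophage-like cells, with overlap between neighbours. In vehicle libraries alone mean Osm was 51.3 CPM in monocyte-like, 18.1 CPM in Trem2 macrophage-like, 15.3 CPM in mature dendritic-like, 11.8 CPM in type 2 dendritic-like and 4.74 CPM in NK cell-like cells.

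The receptors had another order. Mean Il6st over libraries was 1320 CPM in endothelial-like and 1249 CPM in Vwf-led cells, and these 2 classes overlapped. Stellate-like cells followed at 547 CPM, with no library reaching into the range of the classes above. Portal fibroblast-like cells came next at 222 CPM and cholangiocyte-like cells at 95.4 CPM, again without overlap. Mean Lifr was 879 CPM in endothelial-like, 467 CPM in Vwf-led, 353 CPM in stellate-like and 199 CPM in plasmacytoid dendritic-like cells. Mean Osmr was 119.9 CPM in Vwf-led and 118 CPM in endothelial-like cells, which overlapped, then 66.6 CPM in portal fibroblast-like and 62.4 CPM in stellate-like cells.

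The ligand-binding chains of IL6 and IL11 had other carriers. Mean Il6ra was 182 CPM in patrolling monocyte-like, 172 CPM in monocyte-like and 115 CPM in Kupffer-like cells, whose ranges overlapped. No UMI of Il6ra was seen in 412 NK cell-like cells, which allows a share of cells with a UMI of up to 0.728%. Il11ra1 was at 311 CPM in portal fibroblast-like and 304 CPM in stellate-like cells, above every library of the next class, cholangiocyte-like at 80.6 CPM. Il11ra1 has a near-identical copy in the mouse genome, Il11ra2, which has no row in the count tables. Reads of Il11ra2 may be counted under Il11ra1 or lost, so the counts of Il11ra1 are uncertain to that extent. Stat3 was spread over all classes, with the highest mean in patrolling monocyte-like cells at 215 CPM. Socs3 was highest in Vwf-led (293 CPM) and endothelial-like cells (253 CPM), then in portal fibroblast-like (178 CPM) and monocyte-like cells (146 CPM), all overlapping.

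**Figure D1:**
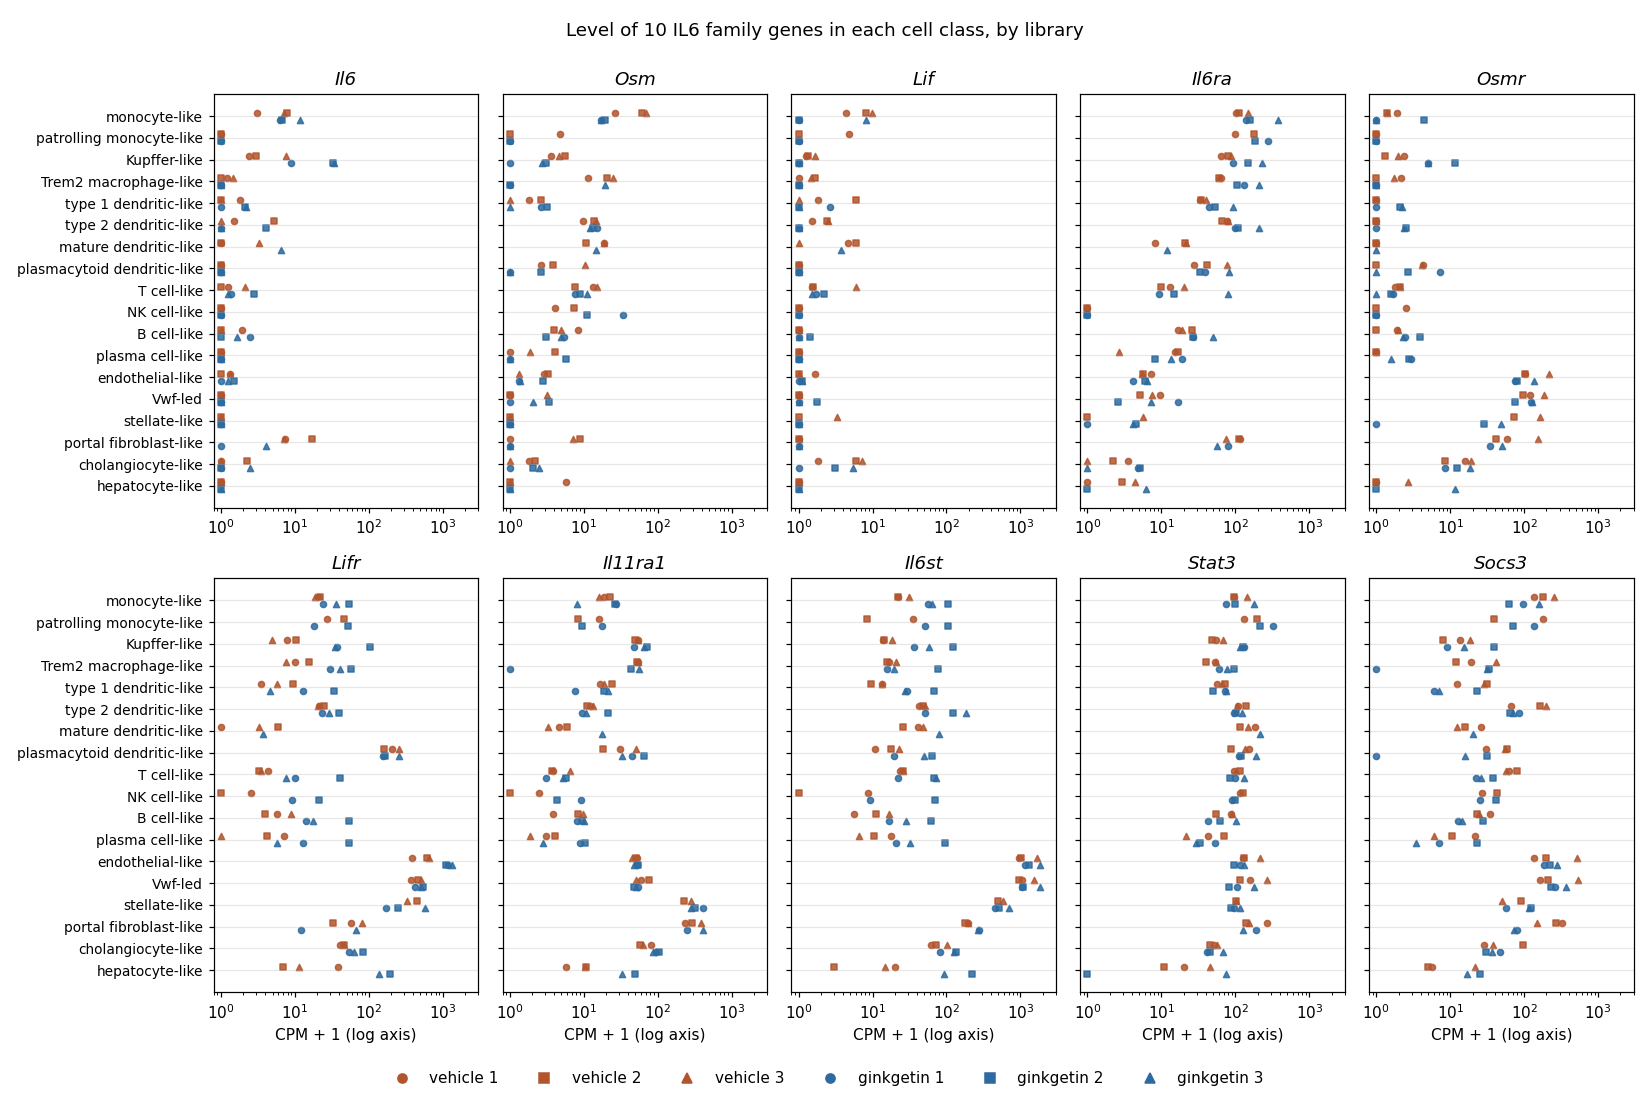
Level of each of the 10 members in 18 cell classes, as CPM + 1 on a log axis, with 1 panel per gene and 1 point per library of at least 10 cells (vehicle in brown, ginkgetin in blue, symbols for replicates 1 to 3). Il6st, Lifr and Osmr are high in the endothelial-like and Vwf-led lines, Il11ra1 in the stellate-like and portal fibroblast-like lines, and Stat3 in nearly every line.

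Across 18 classes, with the combined macrophage-like class left out, Osmr, Lifr and Il6st had like patterns of level. Pearson's r of the mean log2(CPM + 1) was 0.917 between Osmr and Il6st, 0.818 between Osmr and Lifr, and 0.807 between Lifr and Il6st. The classes come from the same 6 libraries, so these values describe the tables and carry no test. The gene most like Osmr over the classes was Timp3 (r = 0.975), the most like Il6st was Ackr1 (0.962), and the most like Lifr was Inpp5a (0.915). For Il6 they were Cxcl13 (0.771), Timd4 and Pcolce2 (each 0.754), for Osm 9930022D16Rik (0.817), for Il6ra Ccdc109b (0.865), for Il11ra1 Nenf (0.927), for Socs3 Rarg (0.901) and for Stat3 Ppp3r1 (0.848).

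Vehicle and ginkgetin were compared on UMI counts summed per library and class with edgeR's quasi-likelihood test, with p-values adjusted over all genes of a class by Benjamini-Hochberg. A library entered a class with at least 10 cells. Over 103 pairs of a member and a class, 6 were called higher and 1 lower in ginkgetin libraries at an adjusted p under 0.05, all 7 in macrophages. At an unadjusted p under 0.05 there were 30 higher and 8 lower, which is 36.9% of the pairs, where 15.3% of all gene tests over the 18 classes passed (2.66% to 32.1% by class). In Kupffer-like cells 3 of 7 tested members were called, all higher (Il6, Lifr, Il6st), where 11% of all genes were called and 5.46% were called higher. The macrophage-like class, which is the Kupffer-like and Trem2 macrophage-like cells together, had 4 of 9 called (Il6, Lifr and Il6st higher, Osm lower), where 13.6% of all genes were called and 6.91% were called higher. Since that class contains the Kupffer-like cells, its calls repeat theirs in part.

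In the other 16 classes edgeR called 0 of 87 pairs, with 27 (31%) at an unadjusted p under 0.05, where 12.1% of all gene tests in these classes passed. DESeq2 called 10 of them (11.5%): Lifr in endothelial-like, Il6st and Lifr in hepatocyte-like, Il6st and Osm in monocyte-like, Lifr and Socs3 in T cell-like, Il6ra and Lifr in Trem2 macrophage-like and Il6st in type 2 dendritic-like cells. DESeq2 called 4.40% of all genes in endothelial-like, 1.92% in hepatocyte-like, 1.24% in monocyte-like, 1.32% in T cell-like, 4.87% in Trem2 macrophage-like and 0.946% in type 2 dendritic-like cells. The share of all genes that edgeR called in these classes was 3.34% in patrolling monocyte-like, 0.766% in endothelial-like, 0.176% in cholangiocyte-like, 0.0272% in NK cell-like, 0.0194% in stellate-like and 0.0172% in type 2 dendritic-like cells, and 0% in the other 10.

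Libraries of replicate 3 deviated together in both groups, as did those of replicates 1 and 2, while the difference between replicates 1 and 2 hardly correlated between vehicle and ginkgetin libraries (median correlation 0.023 over 15 classes). Fits with a block were run beside the main one. Where a value below is given with the block and no other name, the block is the replicate number. No pairing by number was seen within replicates 1 and 2. Values from that fit are thus given beside the main test and do not replace it. With the library set as the block, 19 pairs were called higher and 5 lower. The share of all genes called with that block is not given here, so these counts do not show that members moved more than other genes. With the replicate number as the block, 28 pairs were called, 22 higher and 6 lower, and they included the 7 above. In macrophages these were 4 of 7 members in Kupffer-like cells (27.5% of all genes called), 7 of 9 in macrophage-like (28.5%) and 2 of 7 in Trem2 macrophage-like cells (11.1%). Elsewhere they were 3 of 7 in endothelial-like (12%), 2 of 9 in monocyte-like (1.49%), 2 of 5 in type 1 dendritic-like (5.49%), 2 of 5 in type 2 dendritic-like (3.99%), 2 of 5 in B cell-like (2.60%), 1 of 7 in T cell-like (1.67%), 1 of 6 in stellate-like (3.40%), 1 of 4 in plasma cell-like (1.51%) and 1 of 4 in hepatocyte-like cells (0.302%).

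**Figure D2:**
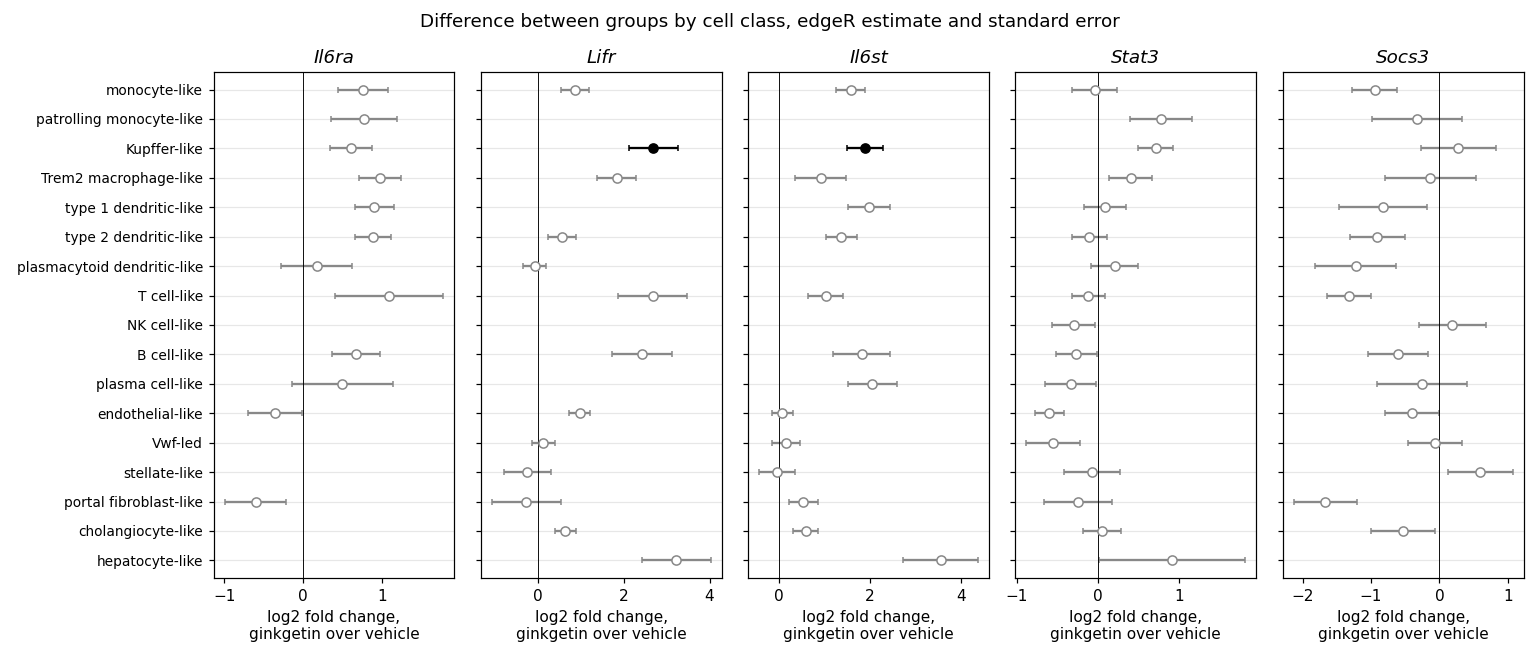
Log2 fold change of ginkgetin over vehicle from edgeR with its standard error (bars), for Il6ra, Lifr, Il6st, Stat3 and Socs3 in each class where the gene was tested except macrophage-like cells, whose values are in the text, with positive values higher in ginkgetin libraries. Filled black points are called at an adjusted p under 0.05, which here are Lifr (2.69) and Il6st (1.88) in Kupffer-like cells, and open grey points are not called.

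Among the ligands, Il6 rose in Kupffer-like cells. Its level was 1.37, 1.99 and 6.60 CPM in vehicle replicates 1 to 3 and 7.92, 32.0 and 33.0 CPM in ginkgetin replicates 1 to 3. All ginkgetin libraries lay above all vehicle libraries, though vehicle replicate 3 and ginkgetin replicate 1 were close. The counts were small, with 10, 6 and 48 Il6 UMIs in vehicle and 2, 15 and 58 in ginkgetin libraries, and ginkgetin replicate 1 rested on 88 cells. The log2 fold change was 2.53 (SE 0.613, edgeR adjusted p = 0.0427), and 2.33 with the replicate block (adjusted p = 0.00138). Il6 passed the gene filter here only with the ginkgetin libraries, since vehicle replicates 1 and 2 were too low, so its p-values carry that choice. Within replicates 1 and 2 the log2 ratio of mean levels was 3.57, and within replicate 3 it was 2.32.

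The Il6 UMIs were spread over few cells of the class. Cells with an Il6 UMI numbered 7, 4 and 26 of 674, 397 and 390 in vehicle, and 2, 13 and 39 of 88, 201 and 512 in ginkgetin libraries, and the highest count in a cell was 8. After each cell was thinned to 1000 UMIs, the share of Kupffer-like cells with an Il6 UMI was 0.307% ± 0.410 (SD, n = 3) in vehicle and 2.49% ± 1.22 (SD, n = 3) in ginkgetin libraries (two-sided exact permutation test, p = 0.1, the smallest that 3 against 3 allows). Thinning left out 2 vehicle and 58 ginkgetin Kupffer-like cells with fewer UMIs. Without thinning it was 2.90% and 5.45% (exact permutation p = 0.3), with vehicle cells the deeper. NK cell-like cells, which should lack Il6, had 0 UMIs in 412 cells, and endothelial-like cells stayed at or under 0.515 CPM in every library.

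Different clusters held the Kupffer-like cells of the groups. Vehicle cells lay mostly in cluster c14 (replicates 1 and 2) and cluster c16 (replicate 3), and ginkgetin cells in cluster c18. Kupffer cells are the liver's resident macrophages, and the class was named from their markers, of which Clec4f, Cd5l and Vsig4 were detected in all 3 clusters. Other markers differed between the groups. Timd4, a receptor typical of long-resident Kupffer cells, was 71.1 to 82.7 CPM in vehicle and 307 to 497 CPM in ginkgetin libraries. The scavenger receptors Marco and Cd163 were 50.9 to 92.6 CPM and 5.50 to 23.6 CPM in vehicle and 546 to 813 CPM and 483 to 552 CPM in ginkgetin libraries. Trem2 was 712 to 802 CPM in vehicle and 27.7 to 55.5 CPM in ginkgetin libraries. A change within 1 kind of cell cannot be told apart from a different kind of cell. The 5 lipid-associated markers summed to 1588 to 1722 CPM in vehicle and 100.3 to 365 CPM in ginkgetin Kupffer-like cells, and the 6 T cell markers to 3.99 to 10.0 CPM and 35.6 to 74.7 CPM. The part of these shifts in the Il6 result was not tested. In macrophage-like cells together Il6 rose by 3.11 on the log2 scale (SE 0.572, edgeR adjusted p = 0.0196). Trem2 macrophage-like cells had a mean of 0.108 CPM of Il6. They were 44.4% to 64.4% of that class in vehicle and 6.74% to 18% in ginkgetin libraries, and the part of this makeup was not tested. The macrophage-like call held without ginkgetin replicate 1 (adjusted p = 0.0444) or vehicle replicate 3 (0.0201), and lost without ginkgetin replicate 2 (0.0910) or 3 (0.0804) or vehicle replicate 1 (0.116) or 2 (0.133), with the log2 fold change at 2.81 to 3.92. When any 1 library was left out, the Kupffer-like call was kept only without vehicle replicate 3 (log2 fold change 3.48, adjusted p = 0.0178). It was lost without ginkgetin replicate 1 (adjusted p = 0.0623), 2 (0.162) or 3 (0.144) and without vehicle replicate 1 (0.184) or 2 (0.203), with the log2 fold change at 2.12 to 2.74.

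Il6 could be tested in 1 further class. Monocyte-like cells had 2.05, 6.80 and 6.08 CPM of Il6 in vehicle and 5.33, 5.81 and 10.7 CPM in ginkgetin libraries, which overlapped (log2 fold change 0.51, edgeR adjusted p = 0.730). Portal fibroblast-like cells had too few UMIs of Il6 for a test, with 1, 2 and 1 in vehicle and 0 and 1 in ginkgetin libraries.

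Osm moved the other way. Its level in monocyte-like cells was 25.1, 59.7 and 69.0 CPM in vehicle and 16, 18.6 and 16 CPM in ginkgetin libraries. Every ginkgetin library lay below every vehicle library, and vehicle replicate 1 was the nearest to them. The log2 fold change was -1.67 (SE 0.413), with an edgeR adjusted p of 0.267 and of 0.0320 with the replicate block (log2 fold change -1.72), where DESeq2 gave 0.0487. After thinning, 4.76% ± 2.66 (SD, n = 3) of vehicle and 1.02% ± 0.200 (SD, n = 3) of ginkgetin monocyte-like cells had an Osm UMI (exact permutation p = 0.1), against 0.266% and 0.0605% in endothelial-like cells. Markers of other cells moved with the group in this class. The 5 lipid-associated markers summed to 789 to 950 CPM in vehicle and 324 to 351 CPM in ginkgetin monocyte-like cells, the endothelial markers to 38.6 to 58.6 CPM and 117 to 803 CPM, and the T cell markers to 5.29 to 9.12 CPM and 17.8 to 31.4 CPM. Their part in the Osm values was not tested.

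Osm fell in macrophage-like cells, with 5.79, 12.2 and 15.9 CPM in vehicle and 0, 1.47 and 4.32 CPM in ginkgetin libraries. The groups did not overlap, and the log2 fold change was -2.51 (SE 0.620, edgeR adjusted p = 0.0409; with the block -2.71, adjusted p = 0.00116). Osm passed the gene filter in macrophage-like cells only with the vehicle libraries. The makeup of this class moved with the group, since Trem2 macrophage-like cells were 44.4% to 64.4% of macrophages in vehicle and 6.74% to 18% in ginkgetin libraries. Within Trem2 macrophage-like cells Osm was 10.3, 19.9 and 24.0 CPM in vehicle and 0, 0 and 18.3 CPM in ginkgetin libraries, which overlapped (log2 fold change -1.30, edgeR adjusted p = 0.477). Only 14 to 44 cells were behind each of those ginkgetin values. The macrophage-like call was lost without each library in turn (log2 fold change -3.89 to -2.13, edgeR adjusted p 0.0668 to 0.179).

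Lif was the rarest of the members, with 169 UMIs in classes, 92 of them in monocyte-like cells. Its level there was 3.35, 7.18 and 8.93 CPM in vehicle and 0, 0 and 7.13 CPM in ginkgetin libraries (log2 fold change -1.30, edgeR adjusted p = 0.590). The groups overlapped through ginkgetin replicate 3, and no other class could be tested.

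**Figure D3:**
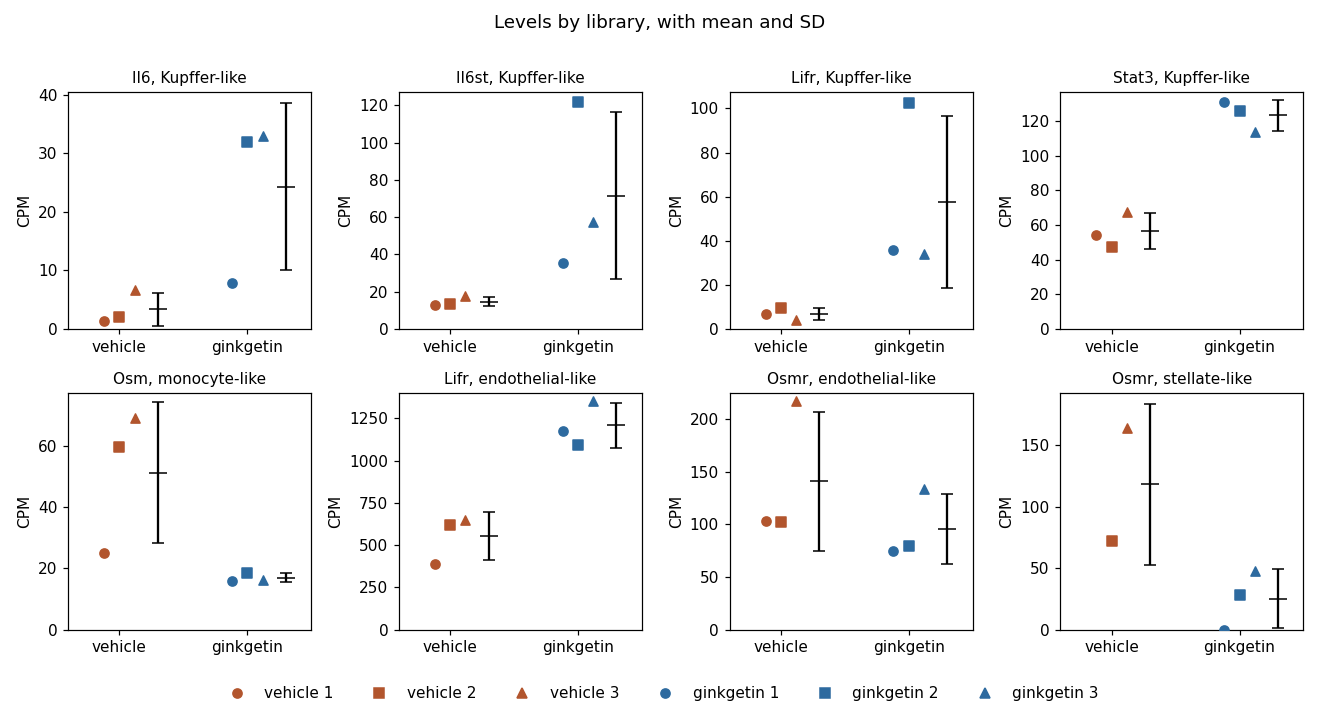
Level in CPM on a linear axis, 1 point per library (symbols for replicates 1 to 3) with the mean and SD of each group beside it, for Il6, Il6st, Lifr and Stat3 in Kupffer-like, Osm in monocyte-like, Lifr and Osmr in endothelial-like and Osmr in stellate-like cells. The groups do not overlap except for Osmr in endothelial-like cells, and Osm and Osmr are the genes with lower means in ginkgetin libraries.

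Among the receptors, Il6ra was higher in ginkgetin libraries in 11 of the 13 classes tested, 5 of them at an unadjusted p under 0.05, and edgeR called none. In Kupffer-like cells it was 62, 78.1 and 86.6 CPM in vehicle and 91.0, 145 and 228 CPM in ginkgetin libraries, without overlap (log2 fold change 0.60 with SE 0.269, edgeR adjusted p = 0.173). In Trem2 macrophage-like cells Il6ra was 63.6, 59.8 and 59.7 CPM in vehicle and 131, 103 and 207 CPM in ginkgetin libraries. In the same cells the lipid-associated markers summed to 3629 to 5308 CPM in vehicle and 669 to 1864 CPM in ginkgetin libraries, the Kupffer markers to 1061 to 1370 CPM and 481 to 803 CPM, and the endothelial markers to 44.0 to 82.0 CPM and 158 to 1198 CPM, and their part was not tested. The Il6ra groups did not overlap either, and the log2 fold change was 0.97 (SE 0.271, edgeR adjusted p = 0.153; with the block 1.01, adjusted p = 0.00132). Type 1 dendritic-like cells had a log2 fold change of 0.90 (edgeR adjusted p = 0.207; 0.0460 under the replicate block), and type 2 dendritic-like cells 0.88 (edgeR adjusted p = 0.216; 0.0321 under the replicate block). In monocyte-like cells the values were 102, 113 and 146 CPM in vehicle and 140.4, 157 and 375 CPM in ginkgetin libraries, where the groups overlapped and ginkgetin replicate 3 stood well above the rest (log2 fold change 0.76, edgeR adjusted p = 0.394).

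Osmr had a negative log2 fold change in 4 of the 5 classes tested, without an edgeR call. The exception was the macrophage-like class, at 1.29, 0.169 and 0.823 CPM in vehicle and 3.11, 7.33 and 3.36 CPM in ginkgetin libraries, from 16, 1 and 15 UMIs against 1, 5 and 7. Osmr passed the gene filter there through the ginkgetin libraries alone, so its p-values carry that choice. The groups did not overlap (log2 fold change 1.95 with SE 0.744, edgeR adjusted p = 0.122; 0.0448 under the replicate block). Of 10 other settings, the replicate block was the 1 that called it. The endothelial markers in that class summed to 85.6 to 117 CPM in vehicle and 405 to 1306 CPM in ginkgetin libraries, and their part was not tested. In endothelial-like cells Osmr was 103, 102 and 217 CPM in vehicle and 74.2, 79.1 and 134 CPM in ginkgetin libraries. The groups overlapped, since both replicate 3 libraries were high for their group. The log2 fold change was -0.70 (SE 0.264, edgeR adjusted p = 0.309) and -0.69 with the block (adjusted p = 0.0133).

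In stellate-like cells Osmr was 71.9 and 165 CPM in vehicle replicates 2 and 3 and 0, 27.9 and 47.6 CPM in ginkgetin replicates 1 to 3. Vehicle replicate 1 had 6 stellate-like cells and was left out of every stellate test. The groups did not overlap, but the class held only 24 and 38 vehicle cells and 12, 65 and 36 ginkgetin cells. Hepatocyte markers in stellate-like cells summed to 420 to 431 CPM in vehicle and 66.7 to 293 CPM in ginkgetin libraries, and endothelial markers to 150 to 246 CPM and 264 to 914 CPM. Their part in the stellate-like values, of Osmr and of the other genes, was not tested. The log2 fold change was -1.95 (SE 0.621, edgeR adjusted p = 0.617), and with the block, over 2 libraries a group, -1.71 (adjusted p = 0.0128). After thinning to 1000 UMIs, 12.5% of vehicle and 1.95% of ginkgetin stellate-like cells had an Osmr UMI (exact permutation p = 0.2, the smallest that 2 against 3 allows), and this difference turned at 500 UMIs, where the ginkgetin share was 0.759 percentage points higher. Osmr in Vwf-led cells was 119, 96.1 and 183 CPM in vehicle and 121, 73.5 and 128 CPM in ginkgetin libraries, which overlapped (log2 fold change -0.33, edgeR adjusted p = 0.969).

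Lifr had a positive log2 fold change in 11 of 14 classes, 9 of them at an unadjusted p under 0.05. In endothelial-like cells, the class with its highest mean level, it was 387, 617 and 647 CPM in vehicle and 1177, 1093 and 1353 CPM in ginkgetin libraries. All ginkgetin libraries lay well above all vehicle libraries. The log2 fold change was 0.97 (SE 0.245), with an edgeR adjusted p of 0.162 and of 0.0120 with the block, and DESeq2 gave 0.00353. Within replicates 1 and 2 the log2 ratio was 1.18, and within replicate 3 it was 1.06.

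The share of endothelial-like cells with a Lifr UMI, after thinning to 1000 UMIs, was 40.2% ± 8.57 (SD, n = 3) in vehicle and 67.3% ± 2.52 (SD, n = 3) in ginkgetin libraries (exact permutation p = 0.1). Without thinning it was 70.1% and 92.3%. In B cell-like cells, taken as the background, the thinned shares were 0.485% and 2.90%. Different clusters held the endothelial-like cells of the groups here too: c0 (vehicle replicates 1 and 2), c12 (vehicle replicate 3), c3 and c4 (ginkgetin replicates 1 and 2) and c33 (ginkgetin replicate 3). The endothelial markers themselves summed to 8139 to 10766 CPM in vehicle and 12539 to 17057 CPM in ginkgetin libraries, and the lipid-associated markers in the same cells to 1170 to 1890 CPM and 488 to 639 CPM. The part of these shifts in the endothelial-like values was not tested. Per 100 UMIs of those markers, endothelial-like cells had 4.76 to 6.76 Lifr UMIs in vehicle and 7.93 to 9.39 in ginkgetin libraries.

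Lifr did not pass the test in Vwf-led cells, at 375, 464 and 509 CPM in vehicle and 415, 532 and 507 CPM in ginkgetin libraries (log2 fold change 0.12, edgeR adjusted p = 1). Whether the classes differ in their response was not tested. In plasmacytoid dendritic-like cells Lifr was 207, 159 and 256 CPM in vehicle and 156, 162 and 256 CPM in ginkgetin libraries. In stellate-like cells it was 443 and 329 CPM in vehicle and 170, 251 and 572 CPM in ginkgetin libraries. The groups overlapped in both.

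Lifr and Il6st also rose in Kupffer-like cells, at far lower levels. Lifr was 6.73, 9.31 and 3.85 CPM in vehicle and 35.6, 102 and 34.2 CPM in ginkgetin libraries (log2 fold change 2.69 with SE 0.575, edgeR adjusted p = 0.0292). Il6st was 13.1, 13.3 and 17.5 CPM in vehicle and 35.6, 122 and 57.5 CPM in ginkgetin libraries (log2 fold change 1.88 with SE 0.396, edgeR adjusted p = 0.0280). Neither gene's groups overlapped, and ginkgetin replicate 2 was the highest for both. The endothelial marker sum in the same cells was 142, 142 and 148 CPM in vehicle and 455, 1355 and 544 CPM in ginkgetin libraries, and was highest in ginkgetin replicate 2 as well. Per 100 endothelial marker UMIs, vehicle Kupffer-like cells had 2.60 to 6.56 Lifr and 9.21 to 11.8 Il6st UMIs. Ginkgetin Kupffer-like cells had 6.28 to 7.83 Lifr and 7.83 to 10.6 Il6st UMIs, beside 7.93 to 9.39 and 9.13 to 10.8 in ginkgetin endothelial-like cells. By this ratio the groups of Kupffer-like cells overlapped for both genes. All 7 endothelial markers had UMIs in the Kupffer-like cells of every library.

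The same pair of genes had positive log2 fold changes in classes of other lineages. In B cell-like cells Lifr was 4.68, 2.95 and 7.89 CPM in vehicle and 13, 52.2 and 16.9 CPM in ginkgetin libraries (log2 fold change 2.43, edgeR adjusted p = 0.338; 0.0358 under the replicate block). Of 11 other settings, the replicate block was the 1 that called it. In T cell-like cells Lifr was 3.37, 2.23 and 2.47 CPM in vehicle and 9.22, 39.3 and 6.55 CPM in ginkgetin libraries (log2 fold change 2.67, edgeR adjusted p = 0.329). The groups did not overlap in either class. For Il6st, 14 of 15 tested classes had a positive log2 fold change (15 of 15 with library totals as the scaling), 9 of them at an unadjusted p under 0.05, and the largest was in hepatocyte-like cells at 3.56 (edgeR adjusted p = 0.276). The part of the endothelial marker UMIs in the Kupffer-like calls was not tested. Shares in Kupffer-like cells after thinning were 0.667% and 6.25% for Lifr (exact permutation p = 0.1), and 1.40% and 4.89% for Il6st (exact permutation p = 0.4).

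**Figure D4:**
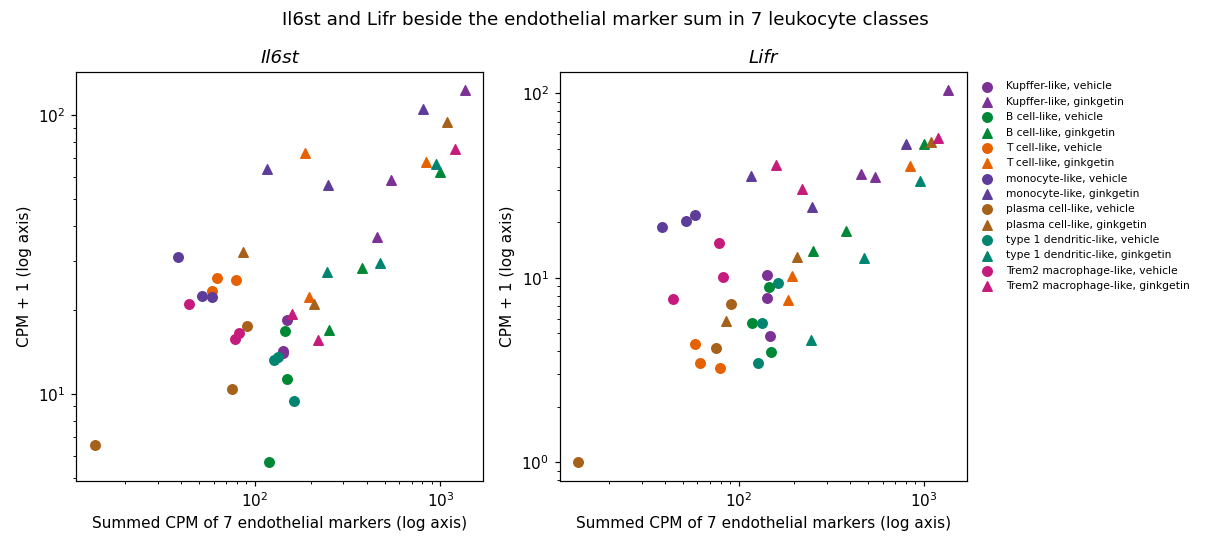
Level of Il6st and Lifr (CPM + 1) against the summed CPM of the 7 endothelial markers, both on log axes, in 7 leukocyte classes (colours), 1 point per library, with circles for vehicle and triangles for ginkgetin. The classes are Kupffer-like, Trem2 macrophage-like, monocyte-like, type 1 dendritic-like, B cell-like, T cell-like and plasma cell-like cells. Among these, the highest point of either gene is Kupffer-like cells of ginkgetin replicate 2, at a marker sum of 1355 CPM, but the order is not the same in each class, since Il6st in T cell-like cells was 72.0 CPM at a sum of 185 CPM and 67.1 CPM at 840 CPM. In Kupffer-like cells the ginkgetin points lie at marker sums of 455 to 1355 CPM against 142 to 148 CPM for vehicle.

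When any 1 library was left out, both Kupffer-like calls were kept only without vehicle replicate 3 (edgeR adjusted p = 0.0396 for Lifr and 0.0386 for Il6st). For Lifr the adjusted p was 0.0693, 0.121 and 0.0556 without ginkgetin replicates 1, 2 and 3, and 0.154 and 0.128 without vehicle replicates 1 and 2. For Il6st it was 0.0501, 0.0843 and 0.0637 without ginkgetin replicates 1, 2 and 3, and 0.157 and 0.161 without vehicle replicates 1 and 2. Without ginkgetin replicate 2 the log2 fold change of Il6st was 1.20 and that of Lifr 1.87. In macrophage-like cells the log2 fold change was 2.20 for Lifr (edgeR adjusted p = 0.0345) and 1.57 for Il6st (edgeR adjusted p = 0.0459), and both calls were lost without each library in turn.

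In the cells that carry most of it, Il6st did not pass the test. It was 944, 1028 and 1670 CPM in vehicle and 1144, 1293 and 1841 CPM in ginkgetin endothelial-like libraries, with both replicate 3 libraries the highest of their group and the groups overlapping (log2 fold change 0.08 with SE 0.236, edgeR adjusted p = 0.956). In stellate-like cells Il6st was 503 and 584 CPM in vehicle and 453, 506 and 689 CPM in ginkgetin libraries (log2 fold change -0.04, edgeR adjusted p = 1). In Vwf-led cells it was 1039, 953 and 1545 CPM in vehicle and 1049, 1082 and 1826 CPM in ginkgetin libraries, which overlapped (log2 fold change 0.16).

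Il11ra1 showed no call in its main carriers. In stellate-like cells it was 228 and 280 CPM in vehicle and 415, 317 and 279 CPM in ginkgetin libraries (log2 fold change 0.33 with SE 0.397, edgeR adjusted p = 0.944). Portal fibroblast-like cells had 233, 290 and 382 CPM in vehicle and 245 and 404 CPM in ginkgetin replicates 1 and 3, which overlapped (log2 fold change 0.16, edgeR adjusted p = 0.999). Cholangiocyte-like cells had 79.6, 56.7 and 62.5 CPM in vehicle and 95.3, 103 and 86.8 CPM in ginkgetin libraries. These did not overlap (log2 fold change 0.53, edgeR adjusted p = 0.375).

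Stat3 itself had log2 fold changes of both signs. In Kupffer-like cells it was 54.4, 47.5 and 67.5 CPM in vehicle and 131, 126 and 113 CPM in ginkgetin libraries. The groups were well apart, yet the log2 fold change was 0.71 (SE 0.216) with an edgeR adjusted p of 0.0715, and 0.68 with the block (adjusted p = 0.0239). When library totals replaced TMM as the scaling, it was 1.13 (adjusted p = 0.0222), a scaling that moved the median over all genes in this class from 0.04 to 0.50. The clusters and the lipid-associated and endothelial markers of Kupffer-like cells moved with the group as given beside Il6 and Lifr. Their part in the Stat3 values was not tested. In endothelial-like cells Stat3 was 124, 130 and 213 CPM in vehicle and 115, 94.9 and 131 CPM in ginkgetin libraries, which overlapped (log2 fold change -0.60 with SE 0.184, edgeR adjusted p = 0.223; 0.0398 under the replicate block). Stellate-like cells had 102 and 99.7 CPM of Stat3 in vehicle and 94.3, 87.2 and 114 CPM in ginkgetin libraries, a log2 fold change of -0.07 (with SE 0.343, edgeR adjusted p = 1). Over the 18 classes it was positive in 8 and negative in 10 (the same counts with library totals, where monocyte-like and type 1 dendritic-like cells traded signs), with 2 and 1 at an unadjusted p under 0.05.

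The inhibitor Socs3 had a negative log2 fold change in 14 of 17 classes (12 of 17 with library totals as the scaling, where macrophage-like and Trem2 macrophage-like cells turned), 3 of them at an unadjusted p under 0.05. In T cell-like cells it was 60.5, 79.8 and 54.9 CPM in vehicle and 21.6, 36.3 and 24.9 CPM in ginkgetin libraries, without overlap (log2 fold change -1.32 with SE 0.324, edgeR adjusted p = 0.299; 0.0103 under the replicate block; by DESeq2 0.0270). The endothelial markers in T cell-like cells summed to 58.4 to 79.3 CPM in vehicle and 185 to 840 CPM in ginkgetin libraries. Their part was not tested. In monocyte-like cells Socs3 was 134, 181 and 249 CPM in vehicle and 96.0, 61.6 and 157 CPM in ginkgetin libraries, which overlapped (log2 fold change -0.95, edgeR adjusted p = 0.338). Portal fibroblast-like cells had 328, 266 and 148 CPM in vehicle and 77.9 and 72.9 CPM in ginkgetin libraries, apart but at an edgeR adjusted p of 0.999 (log2 fold change -1.67).

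In endothelial-like cells Socs3 was 133, 197 and 511 CPM in vehicle and 185, 219.7 and 275 CPM in ginkgetin libraries (log2 fold change -0.40 with SE 0.395, edgeR adjusted p = 0.740). Vehicle replicate 3 set this sign, and without it the log2 fold change was 0.15. In stellate-like cells Socs3 was 89.8 and 48.7 CPM in vehicle and 56.6, 122 and 114 CPM in ginkgetin libraries (log2 fold change 0.60, edgeR adjusted p = 0.868).

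The other genes of the pathway were taken from a list of 52 further ligands, receptors, kinases, inhibitors and known Stat3 targets, of which 49 were found. In stellate-like cells 1 of 18 tested was called. Timp1, an inhibitor of matrix-degrading metalloproteinases, was 551 and 422 CPM in vehicle and 0, 3.49 and 9.53 CPM in ginkgetin libraries, from 92 and 182 UMIs against 0, 1 and 3. The groups were far apart, and the fitted log2 fold change of -6.30 (with SE 0.585, edgeR adjusted p = 0.0243) depends on the prior count at such low values. It was the 1 gene called of the 5157 tested in that class, and it passed the gene filter through the vehicle libraries alone. Without a ginkgetin library the call was lost, and it was kept without vehicle replicate 2 or 3, where the lone vehicle library is assumed to vary like the rest (highest adjusted p 0.470).

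In endothelial-like cells 2 of 34 were called, both lower, where 0.766% of all genes were called, with a list median of -0.32 beside -0.01 over all genes. Lrg1, an acute-phase glycoprotein, was 45.0, 28.6 and 73.2 CPM in vehicle and 6.30, 11.8 and 14 CPM in ginkgetin libraries (log2 fold change -2.32 with SE 0.328, edgeR adjusted p = 0.0457). Myc, a growth-promoting transcription factor, was 39.4, 27.1 and 82.6 CPM in vehicle and 8.75, 9.40 and 7.08 CPM in ginkgetin libraries (log2 fold change -2.66 with SE 0.373, edgeR adjusted p = 0.0450). Neither gene's groups overlapped, and the lipid-associated and endothelial markers of this class moved with the group as given beside Lifr. Both calls were lost without each library in turn (adjusted p up to 0.271).

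In Kupffer-like cells 2 of 34 were called higher and 1 lower, no more than the 11% of all genes called there, with a list median of 0.24 beside 0.04 over all genes. Pim1, a serine kinase of the pathway, was 51.3, 45.5 and 89.2 CPM in vehicle and 127, 162 and 243 CPM in ginkgetin libraries (log2 fold change 1.11, edgeR adjusted p = 0.0433). Pias3, an inhibitor of Stat3, had a log2 fold change of 1.22 (edgeR adjusted p = 0.0430). Vegfa, an endothelial growth factor, was 8.80, 15.3 and 13.5 CPM in vehicle and 3.96, 4.27 and 3.42 CPM in ginkgetin libraries (log2 fold change -2.22, edgeR adjusted p = 0.0222). All 3 calls were kept only without vehicle replicate 3 among the fits with 1 library left out (adjusted p up to 0.202, 0.234 and 0.132 for Pias3, Pim1 and Vegfa).

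Macrophage-like cells had 4 of 35 called, no more than the 13.6% of all genes called there: Ccnd1 (log2 fold change 0.74) and Pias3 (1.17) higher and Nfil3 (-2.83) and Vegfa (-2.46) lower. With 1 library left out, the Ccnd1 call was lost in each of the 6 fits (edgeR adjusted p up to 0.180), and Pias3 was kept only without vehicle replicate 3 (up to 0.192). Nfil3 and Vegfa were kept without ginkgetin replicate 1 or vehicle replicate 3 and lost in the other 4 fits (up to 0.116 for both).

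Patrolling monocyte-like cells, with 2 libraries a group, had 2 of 9 called, where 3.34% of all genes were called, Pim1 higher (log2 fold change 1.60, edgeR adjusted p = 0.0257; 0.0675 under the replicate block) and Hp, the acute-phase protein haptoglobin, lower (log2 fold change -2.05, edgeR adjusted p = 0.0284; 0.0858 under the replicate block). Both were lost without ginkgetin replicate 1 or 2 (edgeR adjusted p up to 0.461) and kept without vehicle replicate 1 or 2, where the lone library of a group is assumed to vary like the other group's. The monocyte markers in patrolling monocyte-like cells summed to 3801 to 5398 CPM in vehicle and 1530 to 3404 CPM in ginkgetin libraries. The lipid-associated markers summed to 912 to 977 CPM and 237 to 507 CPM. The endothelial markers summed to 136 to 165 CPM and 322 to 860 CPM. Their part in the Pim1 and Hp calls was not tested. In monocyte-like cells edgeR called 0 of 32, with 3 higher and 2 lower at an unadjusted p under 0.05, where 12.3% of all genes passed that level.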

How the data were processed

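The labels put 3 libraries in the vehicle and 3 in the ginkgetin group. The deposited tables hold whole-number UMI counts, 1 row per gene symbol and 1 column per cell barcode, which the authors left unscaled. The submitters' notes name GRCm38 and mm10, and the aligner and annotation are not given in the sources used here. The labels' extract protocol describes a bulk RNA kit, although the libraries are labelled 10x.

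Cells with 250 to 5000 genes and under 5% mitochondrial UMIs were kept. The methods state that range for UMIs, which was run as an alternative (16821 cells). Counts were clustered in scanpy 1.11.5 (2000 variable genes without the members and the pathway list, 30 principal components, 15 neighbours, resolution 1, seed 1, no integration), giving 38 clusters. A cluster took a name with at least 3 markers in 25% of its cells at 2 times the mean of other cells. Scrublet called 0.0286% to 0.192% of barcodes, too few to have worked, and none was removed.

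UMI counts were summed per library and class and tested with edgeR 4.0.16 (R 4.3.3, TMM, filterByExpr, group only) in classes with 10 or more cells in at least 2 libraries a group. DESeq2 1.42.0 was an alternative with the same gene filter. The filter asks for a level in as many libraries as the smaller group holds. A gene can thus pass through the group where it is high alone, and its p-value then carries that choice. edgeR was tested on simulated data. Correlations of the deviations of same-numbered libraries were 0.247 to 0.910 in classes with 3 pairs, but the differences between replicates 1 and 2 correlated at only -0.025 to 0.13 between groups over 15 classes. The deviations thus follow the 2 library sets (replicates 1 and 2 against 3), and a pairing by number within replicates 1 and 2 was not seen. A count of 0 allows up to 3 counts, for counting error only. Members were named in every class and pathway genes where called. The members and lists were chosen with earlier results of these data known.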

Additional observations from a re-analysis of the deposited data

How the results depend on the processing

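Of 799 fold-change values over 50 results of a member in a class, 674 kept direction and side of the threshold, 60 passed it newly, 48 no longer passed and 17 turned sign; 43 of the 50 results kept their direction throughout. The 6 pairs called higher became 14 with DESeq2, 19 with the barcode set as a block, 22 with the replicate block, 11 in replicates 1 and 2 alone, 0 with the UMI cell filter and 0 to 4 when a library was left out. The 1 called lower became 3 with DESeq2, 5 with the barcode set as a block, 6 with the replicate block, and 0 with the UMI cell filter, at resolution 2, with library totals as scaling (added after seeing the data) and when any library was left out. The share of all genes called moved with the setting too. With the replicate block it went from 11% to 27.5% in Kupffer-like and from 0.766% to 12% in endothelial-like cells. No share over all genes is given beside the counts of the barcode set block or of replicates 1 and 2 alone. Fewer cells remained under the UMI cell filter, where Il6 in Kupffer-like cells was not tested, and Kupffer-like Lifr was at 1.82 (edgeR adjusted p = 0.125) and Il6st at 1.98 (0.0777). The other causes were not tested. Library totals moved the share of calls that were higher from 49.8% to 85.7% in Kupffer-like and from 50.8% to 87.6% in macrophage-like cells, and the median log2 fold change of all genes from 0.02 to 0.52 in macrophage-like, -0.03 to 0.29 in Trem2 macrophage-like and -0.01 to 0.16 in endothelial-like cells.

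Turned signs were all of values that passed no test. With 1 library left out, the log2 fold change ran in endothelial-like cells from -0.28 to 0.054 for Il11ra1, from -0.020 to 0.22 for Il6st and from -0.70 to 0.15 for Socs3, in Kupffer-like cells from -0.57 to 0.61 for Socs3, and in stellate-like cells from -0.20 to 0.048 for Il6st and from -0.19 to 0.042 for Stat3. The share difference of Osmr in endothelial-like cells ran from -6.09 to 0.0794 percentage points. Library totals turned 8 of all 103 pairs: Il11ra1 to 0.073 in endothelial-like, 0.28 in Kupffer-like and 0.099 in macrophage-like cells, Socs3 to 0.16 in macrophage-like and 0.15 in Trem2 macrophage-like cells, Stat3 to 0.087 in monocyte-like and -0.0047 in type 1 dendritic-like cells, and Il6st to 0.025 in stellate-like cells. The UMI cell filter turned Il6st to -0.14 in endothelial-like and Il11ra1 to 0.12 in Kupffer-like cells. Il6st in stellate-like cells was 0.014 with the barcode set as a block and 0.044 with the replicate block, and Socs3 in endothelial-like cells 0.13 in replicates 1 and 2 alone. Share differences turned for Osmr in stellate-like cells (0.759 at 500 UMIs) and Stat3 in stellate-like cells (-15.1 without thinning, -2.99 at 500 UMIs). Stellate-like fold changes rest on 62 vehicle and 113 ginkgetin cells, and Il6 and Lif on 269 and 169 UMIs, which limits what could be called.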
